A study of Homo sapiens with 8 samples.

Results

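Classical cadherins and the catenins that bind them form the core of the adherens junction, and the 8 genes described here are the cadherins CDH1, CDH2, CDH3 and CDH11 and the catenins CTNNA1, CTNNB1, CTNND1 and JUP. They were taken by gene symbol from the deposited count tables, where all 8 were found among 50006 listed genes, each at a single locus. All 8 also passed the filter on low counts that left 16307 genes for testing.

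The cells were BEAS-2B, an immortalised human bronchial epithelial line labelled wild type and grown in serum-free LHC-9 medium, so each group is the same line and no primary tissue was used. RNA was sequenced from 4 groups of 2 libraries, which the labels number as biological replicates without saying whether they came from separate cultures. Mock cells received PBS, FBG cells fibrinogen, FCP cells what the labels call FCPs, an abbreviation they do not spell out, derived with Der m 1, and aC cells the αC domain of fibrinogen. The 3 proteins were given at 4 ng/µl for 4 h, and Der m 1 is a house dust mite allergen. The series title ties the αC domain to the mite allergen, whereas the sample labels name it as a part of fibrinogen, and which holds was not resolved here. How the αC domain was prepared and how long Mock cells were kept in PBS are not given in the sources used here.

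A classical cadherin is a transmembrane protein that binds a cadherin on the neighbouring cell through its extracellular repeats. Inside the cell its tail holds p120-catenin (CTNND1), which keeps the cadherin at the surface, and either β-catenin (CTNNB1) or plakoglobin (JUP), and these in turn hold α-catenin (CTNNA1), which links the complex to actin. Epithelia, the bronchial lining included, are known for E-cadherin (CDH1) and, in basal cells, P-cadherin (CDH3), whereas N-cadherin (CDH2) and cadherin-11 (CDH11) are known from mesenchymal and neural cells. β-catenin released from the junction also acts as a transcriptional coactivator in Wnt signalling.

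The FCP and aC libraries stood apart from the Mock and FBG libraries across the transcriptome, and this bears on every value below. Total counts ran from 15137196 to 22258791 per library and were higher in FCP and aC, where 24283 to 24602 genes had a count, against 20694 to 21533 in Mock and FBG. The summed level of 12 airway and basal epithelial markers in CPM (counts scaled to library size by TMM) was 1306 to 1315 (Mock), 1151 to 1174 (FBG), 4378 to 4443 (FCP) and 4373 to 4450 (aC), and GRHL2 was at 0 counts in Mock. All 11 of these markers that were tested rose in FCP and in aC against Mock, beside 37.3% and 38% of all tested genes. The summed level of 12 fibroblast and mesenchymal markers was 3338 to 3358 CPM (Mock), 2016 to 2037 (FBG), 575 to 576 (FCP) and 558 to 564 (aC). Of 9 tested markers 8 were lower in FCP and 9 in aC than in Mock, beside 36.1% and 36.7% of all tested genes. COL3A1 was at 0 counts in all groups, TWIST2 in Mock and FBG, and PRRX1 in FCP. Endothelial markers summed to 1.15 to 4.44 CPM, and blood and immune markers to 1.35 to 2.84 CPM. The labelled cell type is epithelial, and its markers split in Mock and FBG. The keratins KRT8, KRT18 and KRT17 made up most of the sum there, at 502, 446 and 348 CPM in Mock and 429, 358 and 351 in FBG. The basal keratin KRT5 lay at 2.03 and 7.28 CPM and EPCAM at 2.47 and 6.23 in those groups, while COL1A1, a chain of type I collagen, lay at 2155 and 1089. GRHL2 and TP63, with at most 2 counts in Mock, and KRT15, with 10, passed the filter through FCP and aC, so their rise was fixed by it. COL5A1, DCN and PRRX1, at 0.48, 0.262 and 0 CPM in FCP, passed through Mock and FBG, so their fall was fixed too. The tallies of both marker lists rest in part on such genes. The part of these marker differences in the cadherin results was not tested. Passage and culture history are not given in the sources used here, so treatment and any other difference between Mock and FBG on one side and FCP and aC on the other cannot be told apart. In bulk RNA, fewer cells of a type and less RNA per cell cannot be told apart.

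RefSeq promoter windows (GRCh38.p14) were at hand for 4 of the 8 genes, namely CDH2, CTNNA1, CTNNB1 and JUP. The 250 bases before the start that matches the 5′ end of the deposited gene are shown for CDH2, which was lower in FCP and aC, for JUP, which was higher there, and for CTNNB1, the other gene whose protein takes the same place on the cadherin tail. These windows lie at chr18:28177131-28177380 (minus strand), chr17:41786712-41786961 (minus strand) and chr3:41199255-41199504 (plus strand).
CDH2: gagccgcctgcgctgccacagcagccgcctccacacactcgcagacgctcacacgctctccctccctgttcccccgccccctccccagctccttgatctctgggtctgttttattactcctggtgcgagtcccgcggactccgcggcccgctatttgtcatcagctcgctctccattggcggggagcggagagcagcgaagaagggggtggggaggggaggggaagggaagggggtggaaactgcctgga
JUP: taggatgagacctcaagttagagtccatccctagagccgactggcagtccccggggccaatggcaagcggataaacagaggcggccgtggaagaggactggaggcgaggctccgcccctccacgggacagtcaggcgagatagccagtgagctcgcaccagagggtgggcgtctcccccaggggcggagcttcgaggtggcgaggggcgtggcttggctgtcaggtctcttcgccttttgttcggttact
CTNNB1: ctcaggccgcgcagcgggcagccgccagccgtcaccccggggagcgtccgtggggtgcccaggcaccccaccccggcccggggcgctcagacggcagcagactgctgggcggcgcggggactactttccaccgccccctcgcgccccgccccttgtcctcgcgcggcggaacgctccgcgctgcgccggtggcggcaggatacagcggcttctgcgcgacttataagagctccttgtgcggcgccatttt

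These windows, and that of CTNNA1, were searched on both strands for the E-box bound by Snail and ZEB repressors, CACCTG and its reverse complement CAGGTG. None of the 4 windows held it, against 17.5% of all 35116 windows of 250 bases (6143), which says only that these letters are absent from these bases. The table also holds windows before starts inside the gene, 1 for CDH2, 3 for CTNNA1 and 1 for JUP. Those of CDH2 and CTNNA1 lack the E-box, and that of JUP holds it on both strands. The stretch is shown with the E-boxes in capitals.
JUP inner start: tggcccCACCTGccgagCAGGTGagcgca

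E-cadherin and P-cadherin were low in Mock and FBG and high in FCP and aC, and N-cadherin went the other way. CDH1 (chromosome 16, 68737292 to 68835537, GRCh38.p14, plus strand) encodes E-cadherin. Its counts were 75 and 60 (Mock), 121 and 146 (FBG), 5715 and 5729 (FCP) and 6015 and 6036 (aC). On the CPM scale its level was 5.00 and 4.00 (Mock), 8.15 and 9.84 (FBG), 249.6 and 250.1 (FCP) and 254 and 255 (aC). The FCP and aC libraries all lay above those of FBG, and these above Mock. FCP and aC lay close together, and their difference was not called (log2 fold change 0.028, edgeR adjusted p = 0.709). It rose 55.4-fold in FCP against Mock (log2 fold change 5.79 ± 0.059 SE, edgeR adjusted p = 2.87e-25) and 56.6-fold in aC against Mock (5.82 ± 0.059, adjusted p = 2.31e-25). Only 1.52% of tested genes changed by more in FCP against Mock, in either direction. CDH1 also rose in FBG against Mock, by 1.00 ± 0.11 on the log2 scale (adjusted p = 1.08e-07), and 12.2% of tested genes had a larger change there.

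CDH3 encodes P-cadherin and lies just upstream of CDH1 on the same strand (chromosome 16, 68645310 to 68733771), the 2 starts being 91982 bases apart. Its level was 13.2 and 12.1 CPM (Mock), 8.63 and 8.42 (FBG), 222 and 211 (FCP) and 223 and 224 (aC). The FBG libraries were the lowest, and the FCP and aC libraries were all far above Mock. CDH3 rose 17.1-fold in FCP (4.09 ± 0.045, adjusted p = 3.39e-26) and 17.6-fold in aC (4.14 ± 0.045, adjusted p = 1.94e-26) against Mock. In FBG it fell by 0.57 on the log2 scale (SE 0.077, adjusted p = 4.21e-06), so CDH3 and CDH1 moved in opposite directions in FBG and in the same direction in FCP and aC.

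CDH2 (chromosome 18, 27932879 to 28177130, minus strand), which encodes N-cadherin, was the most abundant of the 4 cadherins in Mock and FBG. Its counts were 2772 and 2747 (Mock), 2520 and 2402 (FBG), 909 and 879 (FCP) and 892 and 893 (aC), or 185 and 183, 169.8 and 162, 39.7 and 38.4, and 37.7 and 37.8 CPM. The FCP and aC libraries all lay below the Mock and FBG libraries. CDH2 fell by 2.24 on the log2 scale in FCP (SE 0.035, 4.71-fold lower, adjusted p = 1.62e-23) and in aC the log2 fold change was -2.28 ± 0.035 (4.87-fold lower, adjusted p = 1.02e-23), both against Mock. The fall in FBG against Mock was 0.15 (SE 0.032, 1.11-fold, adjusted p = 0.000386), and it did not pass the threshold when libraries were scaled by their totals alone (log2 fold change -0.036, adjusted p = 0.376).

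CDH11 (chromosome 16, 64943753 to 65123744, minus strand) encodes cadherin-11, a type II cadherin named for osteoblasts. Although it is known from mesenchymal cells, it was higher in FCP and aC, where the fibroblast markers were lower. Its counts were 40 and 35 (Mock), 30 and 43 (FBG), 488 and 531 (FCP) and 553 and 578 (aC). On the CPM scale these are 2.67 and 2.33, 2.02 and 2.90, 21.3 and 23.2, and 23.4 and 24.4. Mock and FBG overlapped, and FCP and aC lay above both. CDH11 rose 8.88-fold in FCP (3.15 ± 0.13, adjusted p = 1.29e-15) and 9.55-fold in aC (3.25 ± 0.13, adjusted p = 6.6e-16) against Mock. In FBG against Mock the log2 fold change was -0.023, with a 95% interval from -0.35 to 0.30 (adjusted p = 0.949).

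**Figure D1:**
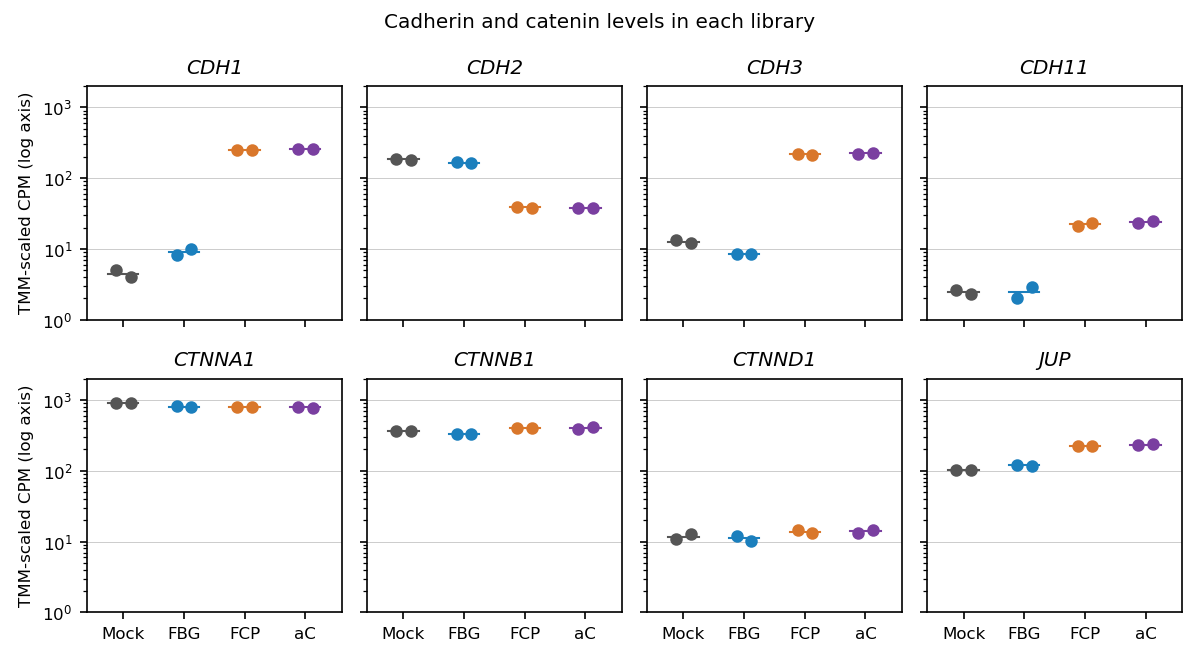
Level (TMM-scaled CPM) of the 8 genes in each of the 8 libraries (points, log axis), with group means as lines. CDH1, CDH3, CDH11 and JUP sit above the Mock and FBG points in FCP and aC, and CDH2 sits below them, while CTNNA1, CTNNB1 and CTNND1 stay within a narrow range.

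The 4 cadherins were set against each other as counts per kilobase of the exon length in the deposited files, since levels of different genes can be compared only per length. On that scale CDH2 made up 92.7% and 93.5% of their sum in the Mock libraries and 92.2% and 90.8% in FBG, but 9.33% and 9.16% in FCP and 8.78% and 8.73% in aC. CDH1 made up 2.36% and 1.92% (Mock), 4.16% and 5.19% (FBG), 55.1% and 56.1% (FCP) and 55.6% and 55.5% (aC). The share of CDH3 was 3.83% to 4.09% (Mock), 2.90% to 2.92% (FBG), 31.1% to 32.3% (FCP) and 32.1% (both aC libraries), and that of CDH11 stayed under that of every other cadherin, at 0.722% to 3.72%. Of these 4, the major cadherin transcript was therefore N-cadherin in all 4 Mock and FBG libraries and E-cadherin in all 4 FCP and aC libraries.

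The exchange was not one for one. The sum of the 4 cadherins was 43.1 CPM per kilobase (SD 0.567, n = 2) in Mock, 39.5 (SD 0.921) in FBG, 92.1 (SD 1.00) in FCP and 94.1 (SD 0.407) in aC. The ratio of CDH1 to CDH2 was 0.023 (Mock), 0.0511 (FBG), 6.02 (FCP) and 6.34 (aC). With the length of the principal transcript in place of the deposited length, an alternative chosen after seeing the data, CDH1 held 47.6% and CDH3 40.9% of the sum in FCP, since the deposited length of CDH3 is 7411 bases and its principal transcript 4929. The order of the 4 genes in FCP and aC was CDH1, CDH3, CDH2, CDH11 on both scales. With 2 libraries against 2 no exact permutation test of a share can pass 0.05, so these shares stand as descriptions.

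**Figure D2:**
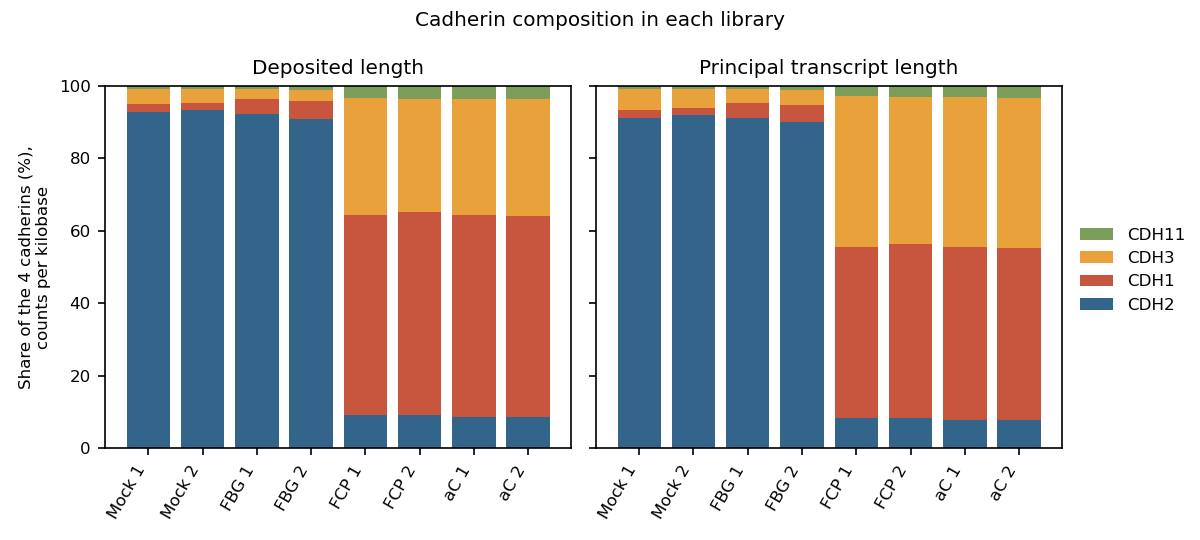
Share of each of the 4 cadherins in their sum, as counts per kilobase, in each library, with the deposited exon length on the left and the principal transcript length on the right. On both scales CDH2 fills about 90% or more of the Mock and FBG bars and CDH1 and CDH3 fill most of the FCP and aC bars.

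Among the catenins CTNNA1, CTNNB1 and JUP, plakoglobin changed most. CTNND1 is left out of this ranking, since its counts cannot be read as its level. JUP (chromosome 17, 41754609 to 41786711, minus strand) encodes plakoglobin, which can take the place of β-catenin on the cadherin tail and also sits in desmosomes. Its counts were 1534 and 1552 (Mock), 1772 and 1753 (FBG), 5091 and 5110 (FCP) and 5465 and 5579 (aC). Its level was 102 and 103 CPM (Mock), 119 and 118 (FBG), 222 and 223 (FCP) and 231 and 236 (aC), with FCP and aC above FBG and FBG above Mock. JUP rose 2.17-fold in FCP (1.11 ± 0.027, adjusted p = 2.87e-20), 2.27-fold in aC (1.18 ± 0.026, adjusted p = 7.91e-21) and 1.15-fold in FBG (0.21 ± 0.029, adjusted p = 2.72e-06) against Mock.

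CTNNB1 (chromosome 3, 41199505 to 41240443, plus strand), which encodes β-catenin, lay within a narrower range. Its level was 366 and 369 CPM (Mock), 331 and 327 (FBG), 403 and 400.0 (FCP) and 394 and 409 (aC). FBG was the lowest group, and FCP and aC lay above Mock. The fall in FBG was 0.16 (SE 0.021, adjusted p = 1.12e-06), and it did not pass the threshold with scaling by library totals alone (-0.047, adjusted p = 0.0709). The rise was 0.13 ± 0.02 in FCP (adjusted p = 5.93e-06) and 0.13 ± 0.02 in aC (adjusted p = 5.81e-06). Its direction there depends on the processing, since with trends of GC content and length removed the log2 fold change was -0.09 in FCP (adjusted p = 0.00044) and -0.046 in aC (adjusted p = 0.0578).

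The share of JUP in CTNNB1 plus JUP, per kilobase of deposited length, was 53.7% (Mock), 60% (FBG), 69.7% (FCP) and 70.7% (aC), as means of 2 libraries, and the aC libraries lay furthest apart, at 70.9% and 70.5%. That level depends on the length used, because the deposited exon length of CTNNB1 is 25405 bases and that of its principal transcript 4735. With principal transcript lengths the shares were 27.5%, 32.9%, 42.9% and 44.1% in the same order, and on raw counts 21.9%, 26.5%, 35.7% and 36.8%. The order of the groups was the same on each scale, whereas which of the 2 genes was the more abundant was not.

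CTNNA1 (chromosome 5, 138753425 to 138935034, plus strand) encodes αE-catenin. Leaving CTNND1 aside, CTNNA1 was the most abundant member in each group per kilobase of deposited length, at 168 CPM per kilobase (Mock), 148 (FBG), 149 (FCP) and 145 (aC). Its level was 908 and 912 CPM (Mock), 809.5 and 795 (FBG), 805 and 806 (FCP) and 788 and 778 (aC). Mock was the highest group and the other 3 lay close together. CTNNA1 fell by 0.18 in FBG (SE 0.015, adjusted p = 1.06e-09), by 0.18 in FCP (SE 0.015, adjusted p = 3.19e-10) and by 0.22 in aC (SE 0.015, adjusted p = 7.74e-12) against Mock. The direction in FCP and aC depends on the scaling. With library totals alone the median of all tested genes moved from 0.057 to 0.28 in FCP and from 0.061 to 0.29 in aC, and CTNNA1 then stood at 0.045 in FCP and 0.014 in aC. The other 7 genes kept their direction in FCP and aC against Mock under that scaling, and in FBG against Mock the uncalled values of CDH11 and CTNND1 changed sign, to 0.09 and 0.032. Of the exon bases of CTNNA1, 3.86% lie on exons of LRRTM2 or CTNNA1-AS1.

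CTNND1 (chromosome 11, 57761802 to 57819540, plus strand) encodes p120-catenin, and its counts cannot be read as its level. Of its 6670 exon bases 88.5% are shared with the readthrough gene TMX2-CTNND1, and featureCounts leaves fragments that meet exons of more than 1 gene unassigned unless told otherwise, which the file headers do not show. The readthrough gene itself had 3 to 15 counts per library. The counts of CTNND1 were 163 and 190 (Mock), 179 and 151 (FBG), 333 and 300 (FCP) and 314 and 349 (aC), or 10.9 and 12.7, 12.1 and 10.2, 14.5 and 13.1, and 13.3 and 14.8 CPM. Mock and FBG overlapped, and FCP and aC lay a little above them. In FCP against Mock the log2 fold change was 0.23, with a 95% interval from -0.0034 to 0.47 (adjusted p = 0.0706). In aC it rose by 0.25 ± 0.11 (adjusted p = 0.0489). That call was lost without Mock replicate 1 (0.13, adjusted p = 0.379), without aC replicate 2 (0.18, adjusted p = 0.274) and with DESeq2 (0.25, adjusted p = 0.215). It was also lost with DESeq2 size factors (adjusted p = 0.0544), with no filter (0.0583), with a stricter filter (0.0569), with a replicate block (0.0584) and with GC content and length trends removed (0.0698). With library totals alone the aC value was 0.48.

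**Figure D3:**
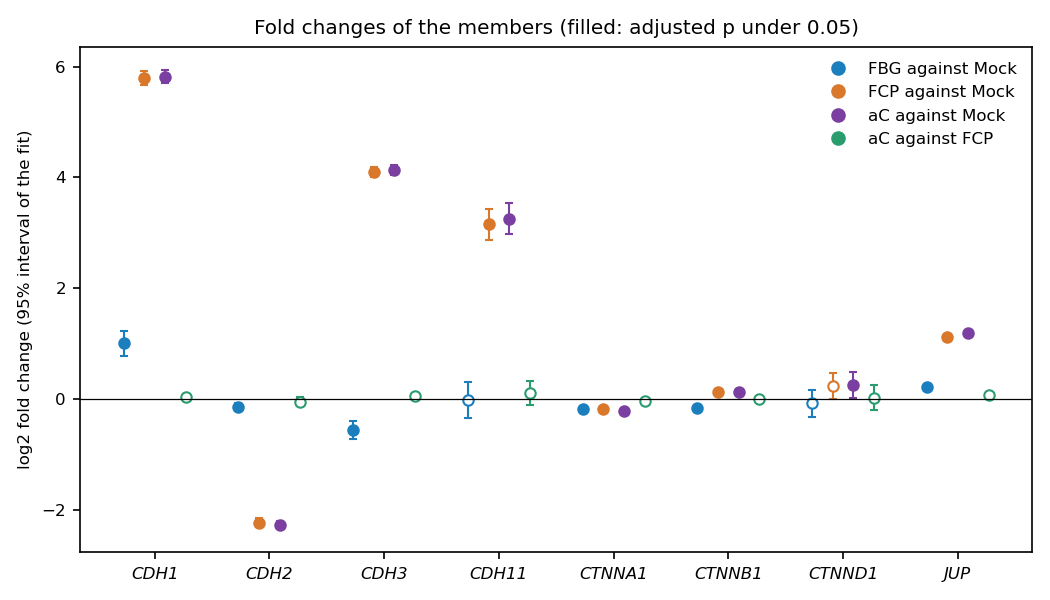
Log2 fold changes of the 8 genes with the 95% interval of the edgeR fit, for FBG, FCP and aC against Mock and for aC against FCP. Filled points have an adjusted p under 0.05. CDH1, CDH3 and CDH11 reach 5.82, 4.14 and 3.25 in aC, CDH2 reaches -2.28, and every point of aC against FCP lies near 0.

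Counted over the 8 genes, 5 rose and 2 fell in FCP against Mock, where 73.4% of all tested genes were called (37.3% higher, 36.1% lower). In aC against Mock 6 rose and 2 fell, against 74.7% of all tested genes called (38% higher, 36.7% lower). In FBG against Mock 2 rose and 4 fell, against 50.4% called (24.2% higher, 26.3% lower). A count of called members near these backgrounds says nothing particular about the 8 genes. Over these 8 the median log2 fold change was -0.12 in FBG, 0.67 in FCP and 0.72 in aC against Mock, beside 0.015, 0.057 and 0.061 over all tested genes. CTNND1, whose counts cannot be read as its level, is among the middle values that set each of these medians. The 3 comparisons share the Mock libraries. The standard error of the fit lay below the counting error for 4 of the 8 genes in FBG and for 5 of the 8 in FCP and in aC against Mock, so those standard errors understate the error. For CDH1 in FCP against Mock the counting error was 0.12 on the log2 scale.

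Against FBG in place of Mock the cadherins gave the same picture. In FCP against FBG 6 genes rose and 1 fell, where 66.8% of tested genes were called (32.6% higher, 34.2% lower), and in aC against FBG 6 rose and 2 fell, where 68.3% were called (33.8% higher, 34.5% lower). One of the 6 in both is CTNND1, whose call against FBG was lost in FCP with DESeq2 (0.34, adjusted p = 0.0988), without FBG replicate 2 (0.19, adjusted p = 0.236) and without FCP replicate 1 (0.24, adjusted p = 0.161). In aC it was lost with DESeq2 (0.36, adjusted p = 0.0754), without FBG replicate 2 (0.21, adjusted p = 0.185) and without aC replicate 2 (0.26, adjusted p = 0.124). CDH1 was 27.8-fold higher in FCP (4.79 ± 0.052, adjusted p = 1.16e-24) and CDH3 25.4-fold higher (4.67 ± 0.049, adjusted p = 1.2e-26), so that CDH3 differed more from FBG than from Mock and CDH1 less. CDH2 fell by 2.09 in FCP against FBG (SE 0.035, adjusted p = 8.89e-23). CTNNB1 rose by 0.29 ± 0.02 in FCP against FBG (adjusted p = 2.14e-11). CTNNA1 stood at 0.0056 in FCP against FBG (95% interval -0.026 to 0.037, adjusted p = 0.759). In aC against FBG it fell by 0.035 (SE 0.015, adjusted p = 0.0443), a call that was lost with DESeq2 (-0.014, adjusted p = 0.552) and turned to 0.082 with library totals alone and to 0.043 with GC content and length trends removed.

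Between aC and FCP, 0 of the 8 genes passed the threshold in edgeR and 0 in DESeq2, where 9.01% of all tested genes were called (4.57% higher, 4.45% lower). At an unadjusted p under 0.05 there were 2, JUP (0.068 ± 0.023, adjusted p = 0.075) and CTNNA1 (-0.041 ± 0.014, adjusted p = 0.0892). The log2 difference lay between -0.037 and 0.094 for CDH1 (95% interval), between -0.13 and 0.033 for CDH2, between -0.015 and 0.11 for CDH3 and between -0.12 and 0.33 for CDH11. For CTNNB1 it lay between -0.04 and 0.039 and for CTNND1 between -0.21 and 0.25. For JUP it lay between 0.02 and 0.12 and for CTNNA1 between -0.071 and -0.011. These are intervals of the fit, and for CDH2 the standard error of the fit (0.039) lay below the counting error (0.048). A p that misses the threshold does not show that FCP and aC act alike. The count of members called was 1 or 2 under some alternatives, which the closing part gives.

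The share of other classical cadherins called was near that of all genes (73.4% in FCP and 74.7% in aC), and it rests on few genes. Of 14 other classical cadherins, 6 had enough counts to test, and in FCP against Mock 1 rose and 4 fell (median -1.6, beside 0.057 over all tested genes). CDH6, a type II cadherin of kidney and neural crest, fell from 41.4 CPM (SD 3.37, n = 2) in Mock and 46.9 (SD 0.629) in FBG to 4.00 (SD 0.342) in FCP and 3.68 (SD 0.478) in aC. CDH4, which encodes R-cadherin, a close relative of N-cadherin, had 25.6 CPM (Mock), 31.8 (FBG), 3.17 (FCP) and 3.34 (aC), but it is listed at more than 1 locus, so its level is uncertain. CDH24 fell by 0.37 in FCP (SE 0.06, adjusted p = 1.1e-05). CDH12, at 1.13 CPM in Mock, fell too, and CDH5, the cadherin of endothelium, rose by 2.38 ± 0.58 (adjusted p = 0.000995) with a group mean of 0.895 CPM in FCP and 1.18 in aC. However, CDH5 passed the filter only through FCP and aC, and CDH12 only through Mock and FBG. Their directions were therefore fixed by the filter. In FBG against Mock 1 of the 6 rose (CDH4) and 1 fell (CDH5, with 0 counts in FBG and 5 in Mock, at least 1.65-fold lower against a floor of 3 counts over the group). In aC against Mock 1 rose and 4 fell.

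Of 12 atypical and other cadherins 5 were tested, and in FCP against Mock 1 rose and 3 fell (median -0.11). CLSTN1, a calsyntenin and the most abundant of them, fell by 0.11 in FCP (SE 0.02, adjusted p = 5.97e-05), from 332 CPM (SD 2.27) in Mock to 308 (SD 3.57). CDH13, the membrane-anchored T-cadherin, fell by 0.45 (SE 0.17, adjusted p = 0.0206). CLSTN2 fell from 1.80 CPM in Mock to 0.218 in FCP. CDH26 had 0 counts in Mock and 36 in FCP, at least 7.86-fold higher against a floor of 3 counts over the group. CLSTN2 passed the filter only through Mock and FBG and CDH26 only through FCP, so their directions were fixed by it. In aC 2 rose and 3 fell, and in FBG 2 fell and 3 were not called. CLSTN3, counted as higher in aC, lay at 0.3 CPM in Mock, 0.337 in FBG and 2.37 (SD 1.97) in aC. It passed the filter only through FCP and aC, so that rise was fixed too.

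Other catenins and catenin relatives gave 1 higher and 2 lower of 5 tested in FCP and again in aC, and 1 higher and 2 lower in FBG. CTNNAL1, which encodes α-catulin, rose from 58.9 CPM (SD 0.606, n = 2) in Mock and 60.2 (SD 0.108) in FBG to 144.6 (SD 2.31) in FCP and 134 (SD 1.86) in aC, or by 1.29 ± 0.034 in FCP against Mock (adjusted p = 1.61e-19). PKP4, a relative of p120-catenin, fell by 0.23 in FCP (SE 0.028, adjusted p = 1.23e-07) and by 0.40 in aC (SE 0.029, adjusted p = 1.89e-11), while it rose by 0.22 in FBG (SE 0.029, adjusted p = 1e-06). CTNNBL1, which resembles β-catenin in its repeats and is a splicing protein, fell by 0.70 in FCP (SE 0.038, adjusted p = 9.65e-14).

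All 18 adherens junction partners were tested. In FBG 7 rose and 4 fell, in FCP 7 rose and 5 fell (median 0.13) and in aC 8 rose and 6 fell against Mock. Over all tested genes 50.4% were called in FBG, 73.4% in FCP and 74.7% in aC. The counts of this and the other lists stand beside those shares, and a count near them says nothing particular about a list. AFDN, which encodes afadin, the actin-linked partner of nectins, rose from 96.6 CPM (SD 2.75) in Mock to 279.6 (SD 2.77) in FCP, or by 1.53 ± 0.027 (adjusted p = 1.68e-22). LIMA1, an actin-binding partner of α-catenin, rose by 1.28 ± 0.028 (adjusted p = 7.45e-21). The nectins, which are junction receptors beside the cadherins, split: NECTIN1 rose by 1.61 ± 0.05 (adjusted p = 3.73e-18) and NECTIN2 fell by 1.14 (SE 0.035, adjusted p = 3.9e-18). The list holds 3 genes listed at more than 1 locus, whose levels are uncertain. CAMSAP3, counted as higher in FCP and aC, had 3 counts in Mock and passed the filter only through FCP and aC. Its rise was therefore fixed by the filter.

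All 16 genes of cadherin turnover and processing (proteases, phosphatases, kinases and sorting proteins) were tested, with 5 higher and 5 lower in FBG, 8 higher and 4 lower in FCP (median 0.31) and 10 higher and 4 lower in aC. ADAM15, counted as higher in FCP and aC, shares 82.5% of its exon bases with ADAM15-EFNA4, and 2 genes of the list have more than 1 locus. The levels of these genes are uncertain. PTPRK, counted as higher in aC, lay at 0.267 CPM in Mock, 0.236 in FBG and 9.11 (SD 4.1) in aC. It passed the filter only through FCP and aC, so its rise was fixed by the filter. The kinase YES1 rose from 30.5 CPM (SD 1.95) in Mock and 45.0 (SD 1.42) in FBG to 139.6 (SD 3.46) in FCP, or by 2.19 ± 0.045 in FCP against Mock (adjusted p = 1.53e-21). The kinase FER, which binds p120-catenin, had 28.6 CPM (SD 0.688) in Mock, 84.2 (SD 2.40) in FBG, 88.2 (SD 0.39) in FCP and 90.02 (SD 2.60) in aC, so it rose in FBG too, by 1.56 ± 0.045 (adjusted p = 9.61e-18). The receptor phosphatases PTPRF and PTPRM rose by 0.86 ± 0.016 (adjusted p = 2.7e-22) and by 1.68 ± 0.08 (adjusted p = 1.16e-14) in FCP, whereas PTPRF fell by 0.44 in FBG (SE 0.018, adjusted p = 4.22e-15).

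The β-catenin destruction complex, which marks free β-catenin for degradation, gave 3 higher and 4 lower of 12 tested in each of FBG, FCP and aC against Mock (median -0.18 in FCP). APC, its scaffold, rose from 21.9 CPM (SD 1.12) in Mock to 91.2 (SD 2.22) in FBG, 125 (SD 2.75) in FCP and 134 (SD 0.249) in aC, that is by 2.06 ± 0.045 in FBG (adjusted p = 7.52e-20) and by 2.51 ± 0.043 in FCP (adjusted p = 7.57e-23). Its kinases split: GSK3A fell by 0.62 in FCP (SE 0.035, adjusted p = 2.15e-13) and GSK3B rose by 0.37 ± 0.032 (adjusted p = 3.93e-10). The ubiquitin ligase subunit FBXW11 fell by 0.40 (SE 0.032, adjusted p = 1.32e-10).

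Factors and common targets of Wnt and β-catenin transcription, 14 tested of 19, did not move one way, with 3 higher and 8 lower in FBG, 6 higher and 7 lower in FCP (median -0.026) and 7 higher and 6 lower in aC. CCND1, which encodes cyclin D1, rose from 105.7 CPM (SD 0.92) in Mock and 161 (SD 1.13) in FBG to 379 (SD 2.78) in FCP, or by 1.84 ± 0.023 in FCP (adjusted p = 2.87e-25). RNF43, a ligase that removes Wnt receptors, had 0 counts in Mock and 781 in FCP, at least 171-fold higher. NKD1 reached a mean of 4.41 CPM under FCP and 4.61 under aC, from 0.3 (Mock) and 0.438 (FBG). RNF43 and NKD1 passed the filter only through FCP and aC, so their rises were fixed by it. Both are among the genes counted as higher in FCP and aC, so those counts rest in part on the filter. The coactivator BCL9L and the receptor LGR4 rose by 0.84 ± 0.023 (adjusted p = 3.34e-19) and by 1.07 ± 0.071 (adjusted p = 5.26e-12) in FCP. AXIN2, a target of the pathway in many tissues and chosen here after its values were seen, fell from 10.9 CPM (SD 0.888) in Mock to 1.66 (SD 0.186) in FCP, a log2 fold change of -2.71 (SE 0.18, adjusted p = 6.16e-12). BCL9L shares 17.4% and RNF43 13.5% of its exon bases with another gene.

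Transcription regulators of E-cadherin were taken as 2 lists, whose difference was not tested. Of the repressors, 11 of 14 were tested, with 5 higher and 4 lower in FBG, 3 higher and 5 lower in FCP (median -0.11) and 4 higher and 6 lower in aC. FOXC2, a forkhead factor of mesenchyme, fell from 193 CPM (SD 1.5) in Mock and 161 (SD 0.416) in FBG to 10.2 (SD 0.592) in FCP and 10.5 (SD 0.149) in aC, or by 4.25 in FCP (SE 0.044, adjusted p = 9.49e-27). SNAI2, which encodes Slug and is known to repress CDH1, rose from 1.03 CPM (SD 0.329) in Mock and 2.56 (SD 0.191) in FBG to 23.2 (SD 0.545) in FCP and 21.4 (SD 2.36) in aC, or by 4.48 ± 0.16 in FCP (adjusted p = 7.64e-17), and so moved in the same direction as CDH1. TCF3, an E-protein, and HDAC1, a histone deacetylase, fell by 0.60 (SE 0.024, adjusted p = 4.48e-16) and by 0.58 (SE 0.028, adjusted p = 1.69e-14) in FCP. The 4 best known others, named after their values were seen, did not share a direction in FCP: ZEB2 fell by 1.65 (SE 0.086, adjusted p = 5.75e-14) and TWIST1 by 0.69 (SE 0.095, adjusted p = 8.44e-07), while ZEB1 stood at 0.0028 (adjusted p = 0.976) and SNAI1 at -0.097 (adjusted p = 0.581). ZEB1 rose in FBG against Mock by 0.86 ± 0.081 (adjusted p = 6.38e-09), where CDH1 rose as well.

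Of the epithelial activators 14 of 16 were tested, with 3 higher and 1 lower in FBG, 9 higher and 2 lower in FCP and 12 higher and 2 lower in aC. GRHL2, OVOL1 and FOXA2 had no count in Mock, TP63, OVOL2 and ELF3 had 2 or 3, and EHF had 8. These genes passed the filter only through groups where they are high, so the counts and medians of the list support nothing about its direction. The list's median log2 fold change was 3.46 in FCP and 4.16 in aC, or 1.95 and 2.67 with genes that had no count in a group set at the bound that 3 counts allow. TP63, the master factor of basal epithelial cells, had 2 counts in Mock and 3631 in FCP, a ratio of 1190 (95% counting interval 329 to 9820). ELF3 had 3 counts in Mock and 544 in FCP, a ratio of 119 (interval 40.4 to 578). ESRP1, an epithelial splicing regulator, rose from 0.167 CPM (SD 0.0472) in Mock and 0.708 (SD 0.0475) in FBG to 83.1 (SD 2.08) in FCP and 73.4 (SD 3.21) in aC. Its relative ESRP2 rose by 1.51 ± 0.05 in FCP (adjusted p = 1.03e-17). TP63, GRHL2 and ESRP1 also belong to the epithelial markers above, so this list and those markers are not separate evidence.

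**Figure D4:**
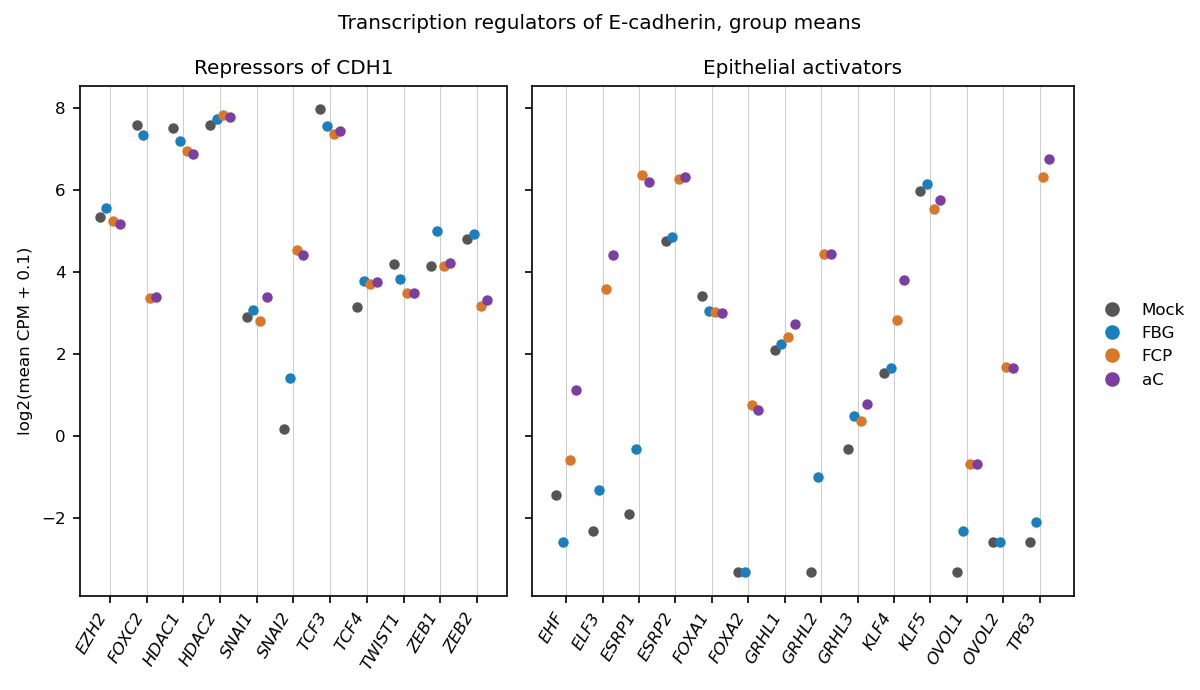
Mean level of the tested repressors (left) and epithelial activators (right) of E-cadherin in each group, as log2 of CPM plus 0.1, n = 2 libraries per point. TP63, ESRP1 and GRHL2 lie near the bottom in Mock and high in FCP and aC, and among the repressors FOXC2 drops while SNAI2 climbs.

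The chromosomal neighbours of the cadherins could be tested at the CDH1 and CDH3 locus alone, where 3 other genes had enough counts. CDH1 and CDH3 lie side by side, and within 250 kb of their starts TANGO6 fell by 0.78 in FCP (adjusted p = 3.59e-10) and by 0.91 in aC (adjusted p = 2.63e-11) against Mock. ZFP90 rose by 0.15 in FCP (adjusted p = 0.0293) and stood at 0.0065 in aC (adjusted p = 0.928). CDH3-AS1, an antisense gene that shares 2.97% of the exon bases of CDH3, stood at 0.91 in FCP (adjusted p = 0.14), at 0.333 CPM in Mock and 0.633 in FCP. No other tested gene lay in that window, and none lay within 250 kb of the start of CDH2 or CDH11.

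Some genes outside the family followed the same course over the 8 libraries. The likeness is the root mean square difference in gene-centred log2 CPM among 15322 tested genes with a single locus, and it carries no test, since the libraries fall into the same groups. CCN1, DAB2 and ITGBL1 lay closest to CDH2, at 0.075, 0.078 and 0.079. ANXA8L1 (0.14), MAPK4 (0.16) and STON2 (0.24) lay closest to CDH1, and LINC01503 (0.15), JAG2 (0.19) and ATP2C2-AS1 (0.19) to CDH3. ARHGEF16 (0.081), MST1R (0.12) and CNKSR2 (0.16) lay closest to CDH11. ZNF532, STX16 and EBLN3P lay closest to JUP (0.036 to 0.045), AMOTL1, TRRAP and TSPYL1 to CTNNB1 (0.026 to 0.03), LARP1, SNRNP200 and GID8 to CTNNA1 (0.016 to 0.019) and FBXO38, TFIP11-DT and HAPLN3 to CTNND1 (0.067 to 0.074). The small distances of the catenins go with their small range. MAPK4 had no count in Mock, and CNKSR2 had none in Mock or FBG. ANXA8L1, LINC01503 and ATP2C2-AS1 lay low too, at 0.4, 0.533 and 0.133 CPM in Mock and 0.876, 0.337 and 0.0674 in FBG. A prior count of 2 enters the log2 CPM, so the likeness of such low genes depends in part on it.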

How the data were processed

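The authors deposited unnormalised counts, 1 table per library, each the number of read pairs assigned to a gene by featureCounts 1.6.0 per the file headers (1.6.2 per the submitters' processing notes), over exons summed by gene in GRCh38.p14, with no strand, overlap or multi-mapping option in the header. The notes also name Trimmomatic 0.39, HISAT2 2.2.1 and SAMtools 1.9. Counts of all 8 libraries were fitted with edgeR 4.0.16 in R 4.3.3 (quasi-likelihood, robust, TMM, filterByExpr by group), leaving 4 residual degrees of freedom, with Benjamini-Hochberg adjustment over 16307 genes in each of 6 comparisons and a call under 0.05. Standard errors are the log2 fold change divided by the root of F. Principal transcript lengths and GC content came from GENCODE v29.

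The 8 members, 9 lists and 4 marker lists were chosen with earlier results of these data known. All members are named, with at most 4 called genes per list by smallest p in FCP against Mock (any tested gene in lists of up to 8) and the 3 genes most alike to each member. P-values measure only the spread between libraries, which may be technical. Replicates of a group varied 1.27 to 1.34 times as much as counting alone gives, and their totals differed by 0.045% to 0.159%. Intervals of log2 fold changes come from the edgeR fit, while those of count ratios, and floors (3 counts), cover counting error only.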

Additional observations from a re-analysis of the deposited data

How the results depend on the processing

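Every called change of CDH1, CDH3, CDH11 and JUP against Mock or FBG kept its direction and its side of the threshold under each alternative tried: DESeq2, its size factors, library totals alone, no filter, a stricter filter, only the 2 groups compared, each library left out, a replicate block, GC content and length trends removed (13569 genes) and genes with copies left out. CDH2 did too, except in FBG against Mock with library totals alone. The reversals were CTNNA1 with library totals alone (0.045 in FCP and 0.014 in aC against Mock, 0.082 in aC against FBG), CTNNA1 with GC and length trends removed (0.043 in aC against FBG) and CTNNB1 with those trends removed (-0.09 in FCP and -0.046 in aC against Mock); the cause was not tested. Members called in aC against FCP numbered 0, and 1 with library totals alone, 1 with no filter, 1 with the replicate block (CTNNA1, -0.041, adjusted p = 0.000494), 2 with genes with copies left out, 2 with only the 2 groups, and 0 to 1 with each library left out. All genes called there numbered 1470, and 867 with DESeq2, 2333 with copies left out, and 853 (without FCP replicate 2) to 1616 (without FBG replicate 1) with each library left out. Calls over all genes in aC against FCP were 828 higher and 574 lower with library totals alone, and 779 and 931 with no filter. They were 723 and 687 with the replicate block, and 1052 and 967 with only the 2 groups. The replicate block also ended the call of CTNND1 in aC against Mock (0.25, adjusted p = 0.0584) and changed no other member's call. The deviations of replicate 1 from its group mean in log2 CPM had correlations of -0.059 to 0.069 between groups, over 10284 genes. Since replicates varied little beyond counting, this cannot show whether replicate numbers pair the libraries. With library totals alone, 63.3%, 63.1% and 63.4% of calls in FBG, FCP and aC against Mock were higher, against 47.9%, 50.8% and 50.9%. Where a library is left out, the lone one is assumed to vary like the other groups. Counts of 30 to 146 in Mock and FBG limit the precision of CDH1 and CDH11.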
